A study of Mus musculus with 20 samples.

Results

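The B7 family and the checkpoint genes measured with it were described here as 8 genes, taken by gene name from the 56748 genes counted: Cd80, Cd86, Icosl, Cd274, Pdcd1lg2, Cd276, Vsir and Havcr2. They were followed through 20 bulk RNA-seq libraries of mouse macrophages in 8 groups. In the first experiment, 12 libraries came from wildtype or iNOS KO cells that were left unstimulated or given LPS at 50 ng/mL together with IFNγ at 30 ng/mL for 48 h, with 3 libraries per group (replicates A, B and C). In the second, 8 libraries came from the line RAW264.7, wildtype or Akr1a1 KO, also left unstimulated or given LPS at 50 ng/mL together with IFNγ at 10 ng/mL for 48 h, with 2 libraries per group (replicates A and B). The question of both was how activated macrophages differ when nitric oxide synthesis (Nos2, encoding iNOS) or the denitrosylating reductase Akr1a1 is removed.

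Several facts limit these groups as models. The libraries of the first experiment are labelled BMDM, bone marrow-derived macrophages, from mice of 6 to 12 weeks. For BMDM the methods give a narrower age range with the same upper limit, and mice of both sexes. By the methods of the study, wildtype mice were C57BL/6J, iNOS KO mice were B6.129P2-Nos2tm1Lau/J and marrow was pooled by genotype. However, those methods place this RNA experiment in the macrophage line RAW264.7, so the cell type is unsettled and BMDM is used here only as the label. The IFNγ dose is unsettled with it, since the methods give 30 ng/mL for BMDM and 10 ng/mL for RAW264.7 cells. The methods also give the RAW264.7 replicates as separate clones, and the Akr1a1 KO as made by CRISPR with single-cell sorting. Replicate B of the unstimulated wildtype and of the unstimulated Akr1a1 KO RAW264.7 cells is titled as stimulated but given as unstimulated by its treatment label. The treatment label was followed, and results that rest on these libraries are also given without them. Their library names mark them as unstimulated too. Nos2 was at most 30.7 (wildtype) and 54.7 CPM (Akr1a1 KO) in the unstimulated groups that hold them, against 4155 to 5899 and 4445 to 8806 CPM in the stimulated ones. The BMDM libraries held 15072109 to 18878107 counts each and the RAW264.7 libraries 11876719 to 44583327. Nos2 held 149748 to 170818 counts in stimulated wildtype and 12352 to 15278 in stimulated iNOS KO BMDM libraries (log2 fold change -3.64). Unstimulated libraries held 25 to 26 counts in wildtype and 0 in iNOS KO. Nos2 RNA was thus lower in iNOS KO but not absent after stimulation, and which part of the gene those reads cover was not examined. Akr1a1 held 7747 to 11987 counts in stimulated wildtype and 3373 to 5528 in stimulated Akr1a1 KO RAW264.7 cells, and its difference did not pass the test (quasi-likelihood F test in edgeR, Benjamini-Hochberg adjusted p = 0.643). All 9 macrophage markers were detected in both experiments, though 1 was at 0 in unstimulated Akr1a1 KO RAW264.7 cells, with summed levels of 5893 to 13565 CPM (counts relative to the scaled library size) in the BMDM libraries. Markers of T cells and B cells reached at most 6 counts in any library. Stimulated iNOS KO replicate B stood apart from its group, with a chi-square per degree of freedom of 28.8 and 36.8 against replicates A and C, where the other BMDM pairs within a group had 2.65 to 7.74.

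Antigen-presenting cells display B7 proteins beside the antigen, and T cells read them through receptors of the CD28 family. CD80 and CD86 activate T cells through CD28 and are also bound by the inhibitory receptor CTLA-4, and ICOSL engages ICOS. PD-L1 (Cd274) and PD-L2 (Pdcd1lg2) inhibit T cells through PD-1, while B7-H3 (Cd276) and VISTA (Vsir) are inhibitory members with less settled receptors. TIM-3 (Havcr2) is itself a checkpoint receptor that myeloid cells also carry. In macrophages IFNγ signals through JAK1 and JAK2 to IRF1, a known route to PD-L1.

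The tables place Cd274 at chr19:29344855-29365495 and Pdcd1lg2 at chr19:29388319-29448561, side by side on the plus strand. Cd80 (chr16:38275923-38316697, plus strand) and Cd86 (chr16:36424231-36486443, minus strand) lie on 1 chromosome, as do Icosl (chr10:77905136-77919747) and Vsir (chr10:60182630-60208463), both on the plus strand. Cd276 lies at chr9:58431581-58462720 (minus strand) and Havcr2 at chr11:46345762-46372082 (plus strand). The tables name no genome build, so these positions are not to be set beside those of the promoter windows, which come from RefSeq on GRCm38.p6. A window of 250 bases before to 50 bases after the gene start was found for 7 of the 8 genes and not for Cd86. The windows of Cd274 and Pdcd1lg2 are shown because these neighbours share a receptor but not a level, and those of Cd80 and Havcr2 because they hold the other motif matches. Capitals mark the match in the sequence as printed, 5′ to 3′ on the strand of the gene.
Cd274 (chr19:29367188-29367487, plus strand): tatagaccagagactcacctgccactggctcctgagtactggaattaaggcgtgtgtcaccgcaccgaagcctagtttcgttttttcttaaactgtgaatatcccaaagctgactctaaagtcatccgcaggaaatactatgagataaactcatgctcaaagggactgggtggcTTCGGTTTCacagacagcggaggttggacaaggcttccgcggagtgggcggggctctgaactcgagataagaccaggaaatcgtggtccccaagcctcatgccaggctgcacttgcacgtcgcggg
Pdcd1lg2 (chr19:29410669-29410968, plus strand): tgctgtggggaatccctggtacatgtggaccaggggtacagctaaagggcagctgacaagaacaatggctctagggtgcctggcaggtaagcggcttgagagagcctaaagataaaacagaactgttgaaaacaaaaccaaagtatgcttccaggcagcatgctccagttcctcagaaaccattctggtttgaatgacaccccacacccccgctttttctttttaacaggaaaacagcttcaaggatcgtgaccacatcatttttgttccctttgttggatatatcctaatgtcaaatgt
Cd80 (chr16:38458683-38458982, plus strand): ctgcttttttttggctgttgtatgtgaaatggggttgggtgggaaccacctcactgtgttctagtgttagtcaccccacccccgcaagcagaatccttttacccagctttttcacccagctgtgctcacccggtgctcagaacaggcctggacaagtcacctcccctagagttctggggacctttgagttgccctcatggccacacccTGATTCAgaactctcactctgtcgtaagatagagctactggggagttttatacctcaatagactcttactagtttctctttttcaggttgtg
Havcr2 (chr11:46454681-46454980, plus strand): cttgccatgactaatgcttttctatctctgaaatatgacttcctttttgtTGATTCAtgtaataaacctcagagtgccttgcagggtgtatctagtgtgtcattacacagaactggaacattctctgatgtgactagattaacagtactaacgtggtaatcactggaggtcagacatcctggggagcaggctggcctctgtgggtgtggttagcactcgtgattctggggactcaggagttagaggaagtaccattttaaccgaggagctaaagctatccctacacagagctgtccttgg

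Of 4 motifs searched on both strands, the Cd274 window held 1, the ISRE core GAAANNGAA, read on the opposite strand and starting 76 bases before the gene start. The Cd80 and Havcr2 windows each held 1 AP-1 motif, TGANTCA, at 42 and 200 bases before the start. No window of the 7 genes held the GAS motif TTCNNNGAA or the kappaB motif GGGANTTTC, and the Pdcd1lg2, Icosl, Cd276 and Vsir windows held none of the 4. Among 32851 windows, 8.56% held the ISRE core, 7.81% the AP-1 motif, 8.3% the GAS motif and 1.11% the kappaB motif. A match describes letters and is not a binding site. Base composition set the genes apart as well, since the Cd276 window was 78.3% G or C with 39 CG pairs and the Icosl window 68.0% with 26, against a median of 52.7% with 7 CG pairs over all windows. The Havcr2 (45.3%), Pdcd1lg2 (46.0%) and Cd80 (49.7%) windows had 3 CG pairs each, and the Cd274 window (52.7%) had 15.

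Levels can be compared between genes only per length, and on the scale of CPM per kb of gene length the order of the 8 genes was rearranged by stimulation. In unstimulated wildtype BMDM libraries Vsir led with 18.7 ± 1.1 CPM per kb (SD, n = 3), followed by Havcr2 (12.0 ± 0.26), Cd276 (9.18 ± 0.38), Cd274 (4.26 ± 0.43) and Cd80 (3.21 ± 0.27). Icosl (0.391 ± 0.04), Cd86 (0.069 ± 0.020) and Pdcd1lg2 (0.046 ± 0.016) were at the bottom, and only the last pair overlapped between libraries. After stimulation Cd274 led at 564 ± 32 CPM per kb, Havcr2 followed at 36.1 ± 1.1 and Vsir at 25.2 ± 2.1, and no neighbours in the order overlapped. Among 21970 protein-coding genes ranked per length, Cd274 moved from rank 6764 to rank 73 in wildtype and from 7415 to 441 in iNOS KO BMDM libraries. In stimulated iNOS KO libraries Cd274 again led, at 128 ± 18 CPM per kb, and Havcr2 overlapped Vsir, Cd276 overlapped Icosl and Cd86 overlapped Pdcd1lg2. Unstimulated RAW264.7 wildtype cells were led by Cd276 at 18.6 CPM per kb, ahead of Vsir at 13.9, and Cd274 held 1.93. Stimulated RAW264.7 cells were led by Cd274, at 110 CPM per kb in wildtype and 200.4 in Akr1a1 KO, with Cd80 next on average at 42.9 and 35.1. In Akr1a1 KO Cd80 overlapped Vsir, at 50.0 and 20.3 CPM per kb (replicates A and B) against 24.5 and 32.1. The rank of Cd274 in RAW264.7 cells went from 9012 to 347 in wildtype and from 9113 to 152 in Akr1a1 KO. Pdcd1lg2 never exceeded 23 counts in any of the 20 libraries.

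**Figure D1:**
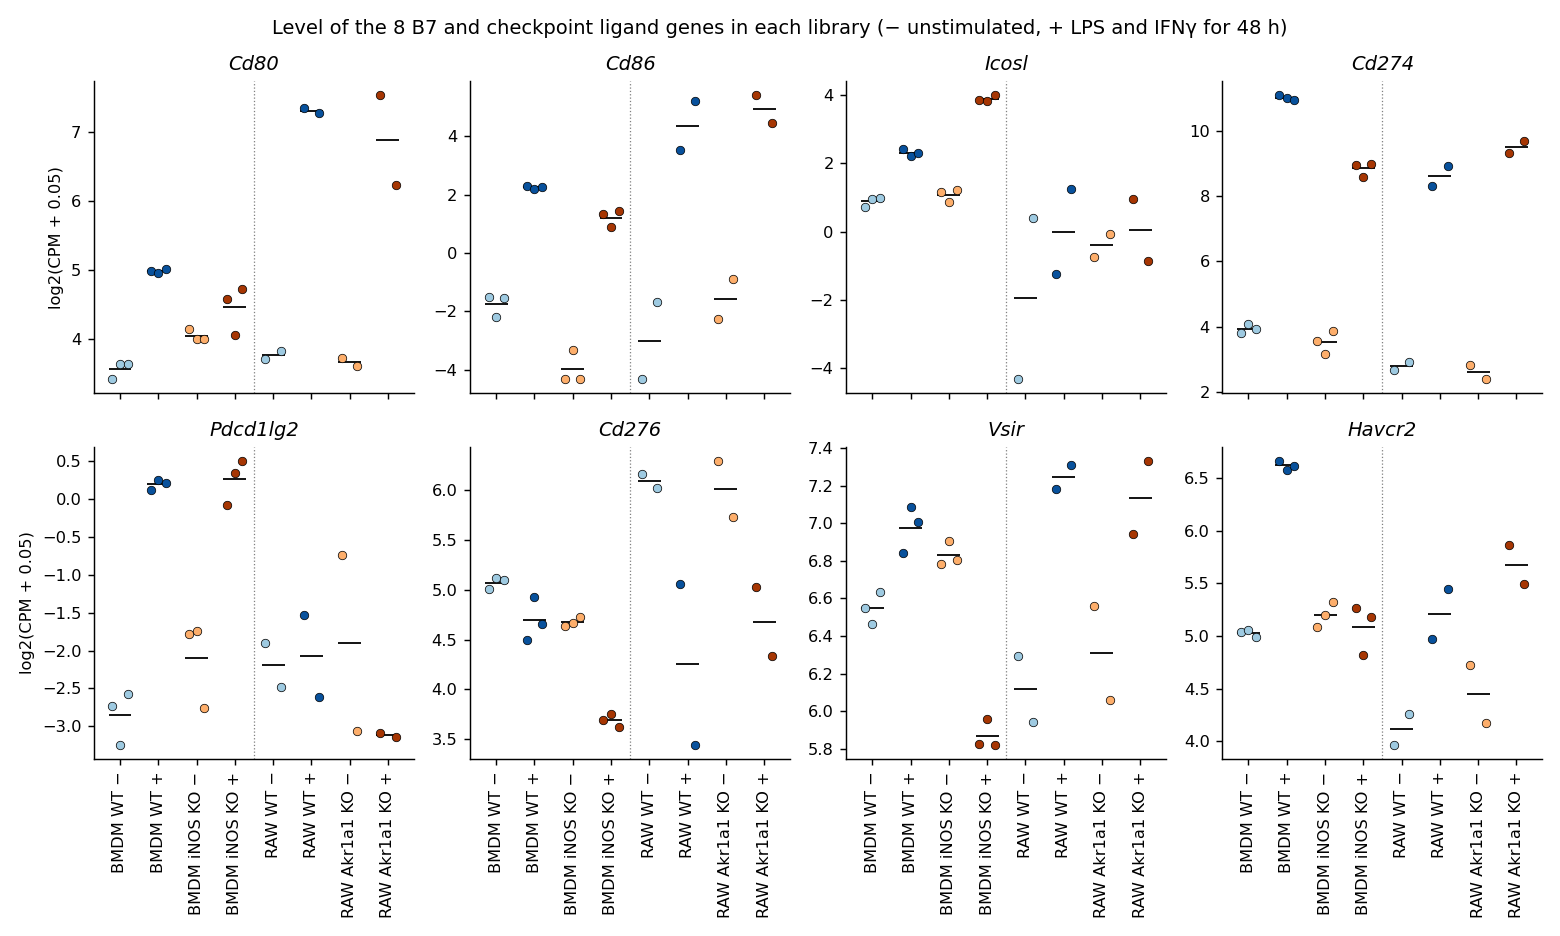
Level of each gene in every library, as log2(CPM + 0.05) on the vertical axis, with 1 point per library, a line at the group mean and the 8 groups along the horizontal axis (− unstimulated, + stimulated). The 3 stimulated wildtype BMDM libraries stand at 1942 to 2168 CPM for Cd274, above the stimulated iNOS KO libraries at 386 to 504 CPM.

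The first comparison asked how stimulation changed the 8 genes in wildtype BMDM libraries. Stimulation raised 7 of the 8 genes and lowered 1, and the groups of 8 did not overlap, as for 67.8% of all genes tested. Over all 18691 genes tested, 32.4% were called higher and 28.5% lower at an adjusted p under 0.05, and the median log2 fold change was 1.52 over the 8 genes and 0.071 over all genes. Here and below a gene is called at an edgeR adjusted p under 0.05, and SE is its standard error on the log2 scale. The p-values set a difference against the spread between libraries of a group, which the methods call biological replicates in this experiment and clonal ones in RAW264.7 cells, while the labels do not say how they were separated. With marrow pooled by genotype, that spread may not hold the spread between mice. Akr1a1 KO and wildtype RAW264.7 cells differ by clone as well as by genotype, and these cannot be told apart. The iNOS KO and wildtype BMDM libraries differ by mouse stock and marrow pool as well as by genotype. If these cells were RAW264.7, they differ by cell line instead. In either case the iNOS genotype cannot be told apart from these. In bulk RNA fewer cells expressing a gene and less RNA per cell cannot be told apart.

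Among the activating ligands, Cd80, the CD28 ligand with the higher transcript level, was at 10.7, 12.5 and 12.4 CPM unstimulated and 31.9, 31.1 and 32.4 CPM stimulated. All stimulated libraries lay above all unstimulated ones, with a rise of 2.68-fold (log2 fold change 1.42, SE 0.13, edgeR adjusted p = 6.43e-08). Cd86 was nearly silent before stimulation, with 6, 3 and 5 counts, and reached 70, 67 and 69 counts. Its rise of 18.1-fold (log2 4.18, SE 0.30, edgeR adjusted p = 1.7e-09) therefore ended at 1.29 ± 0.047 CPM per kb (SD, n = 3), below the 8.58 ± 0.17 CPM per kb of Cd80. Icosl, the ligand of ICOS, went from 32, 34 and 33 to 76, 68 and 70 counts, a rise of 2.72-fold (log2 1.44, SE 0.16, edgeR adjusted p = 4.4e-07).

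The largest response among the 8 genes was that of Cd274. Its CPM was 13.9, 17.0 and 15.3 in unstimulated libraries and 2168, 2023 and 1942 in stimulated ones, a gap far wider than the spread within either group. The rise was 133-fold (log2 7.05, SE 0.16, 95% interval 6.72 to 7.39, edgeR adjusted p = 5.15e-16), and 98.97% of the genes tested had a lower log2 fold change. Pdcd1lg2, which encodes the other PD-1 ligand, rose too but stayed scarce, with 2, 1 and 2 counts unstimulated and 15, 17 and 16 stimulated. The ratio of its summed counts was 12.1, with an interval of 4.84 to 39.0 from counting error alone (edgeR adjusted p = 6.09e-06).

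The remaining genes were Havcr2, Cd276 and Vsir. Havcr2 rose from 32.8, 33.2 and 31.8 CPM to 101, 95.5 and 98.0 CPM, or 3.01-fold (log2 1.59, SE 0.10, edgeR adjusted p = 2.18e-10). Cd276 fell from 32.0, 34.6 and 34.2 CPM to 22.5, 30.4 and 25.2 CPM, the single decrease (log2 -0.37, SE 0.10, edgeR adjusted p = 0.00391). Vsir was at 93.8, 88.2 and 99.4 CPM unstimulated and 115, 136 and 128 CPM stimulated, so its groups stood apart by a small margin (log2 0.43, SE 0.077, edgeR adjusted p = 0.00012). The direction of Vsir depended on the scaling, because with library totals in place of TMM factors its log2 fold change was -0.03 (edgeR adjusted p = 0.68). That scaling moved the median of all genes from 0.071 to -0.39 in this comparison and to -0.41 in the iNOS KO, and in RAW264.7 cells to -0.26 (wildtype) and -0.12 (Akr1a1 KO), so small changes on stimulation are relative to the scaling used. Beside these changes the 5 neutrophil markers summed to 0.880 to 1.11 CPM in unstimulated libraries and to 34.7 to 61.2 CPM in stimulated ones, with Ly6g at 0. The 5 fibroblast markers summed to at most 0.167 CPM and to 3.58 to 4.92 CPM, and the part of both lists in the result was not tested.

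**Figure D2:**
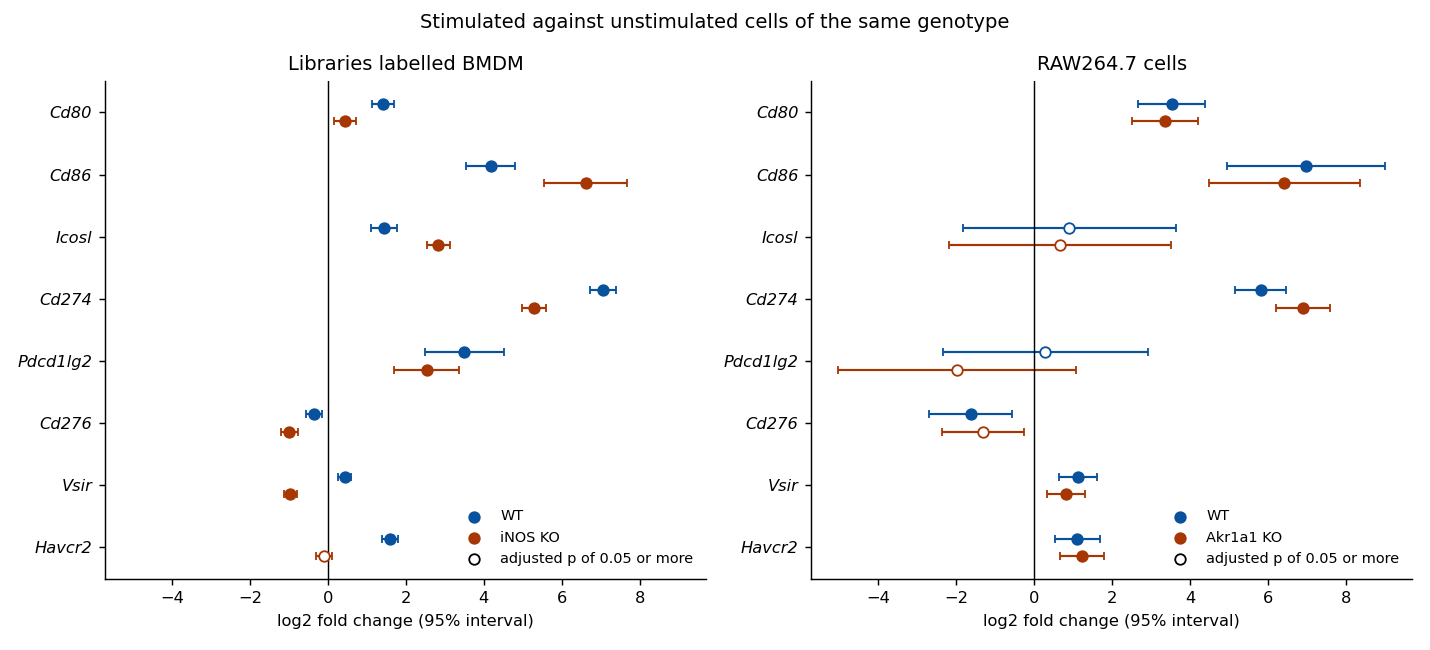
Log2 fold change on stimulation for each gene (horizontal axis, points with 95% intervals), in wildtype and KO cells of both experiments, with open points where the adjusted p was 0.05 or more. Cd274 lies at 7.05 and 5.29 in wildtype and iNOS KO BMDM libraries and at 5.82 and 6.90 in wildtype and Akr1a1 KO RAW264.7 cells.

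The same comparison was made in iNOS KO BMDM libraries. Stimulation raised 5 of the 8 genes, lowered 2 and left Havcr2 short of the threshold, and the groups of 6 did not overlap (57.4% of all genes). Over all genes 27.3% were called higher and 24.6% lower, with a median log2 fold change of -0.00032 against 1.49 over the 8 genes. Cd274 went from 11.9, 9.01 and 14.5 CPM to 499, 386 and 504 CPM, again with no overlap (39.1-fold, log2 5.29, SE 0.15, edgeR adjusted p = 1.23e-14). Cd86 went from 0, 1 and 0 counts to 38, 25 and 44, a ratio of summed counts of 142 with a counting interval of 25.0 to 5667, and its fitted log2 fold change of 6.62 became 8.29 without unstimulated iNOS KO replicate B, the library with the single count. Icosl rose from 45, 36 and 47 to 227, 197 and 267 counts (7.13-fold, log2 2.83, SE 0.14, edgeR adjusted p = 1.54e-11). Pdcd1lg2 rose from 5, 5 and 2 to 14, 17 and 23 counts (log2 2.53, SE 0.40, edgeR adjusted p = 4.22e-05). Stimulated replicate B, the library that stood apart, was the lowest of its group in CPM for Cd274, Cd80, Cd86, Icosl and Havcr2, and without it 7 genes were again called, with Cd80 at 0.61.

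The lower genes of the iNOS KO response were Vsir and Cd276. Vsir fell from 110.0, 119.9 and 111.9 CPM to 56.7, 62.1 and 56.6 CPM (1.95-fold lower, log2 -0.96, SE 0.078, edgeR adjusted p = 1.78e-08), and Cd276 from 24.9, 25.3 and 26.5 CPM to 12.9, 13.4 and 12.3 CPM (1.99-fold lower, log2 -0.99, SE 0.10, edgeR adjusted p = 4.48e-07). Both kept these directions with library totals. The rise of Cd80 was small and its groups overlapped, with 17.8, 16.1 and 16.0 CPM before and 24.0, 16.7 and 26.6 CPM after stimulation (log2 0.44, SE 0.13, edgeR adjusted p = 0.0097). Its adjusted p became 0.0556 without stimulated replicate A, 0.0691 without stimulated replicate C and 0.911 with library totals, under which its log2 fold change was 0.02. Havcr2 was at 33.9, 36.7 and 40.0 CPM unstimulated and 38.3, 28.3 and 36.3 CPM stimulated (log2 -0.10, 95% interval -0.31 to 0.11, edgeR adjusted p = 0.407). With library totals it was called lower, at -0.52 (edgeR adjusted p = 0.000302), and without stimulated replicate B its log2 fold change was 0.02.

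Between unstimulated iNOS KO and wildtype BMDM libraries, 2 of the 8 genes were called higher, where 1.88% of all genes were, and 2 lower, where 4.09% were. These differences were small except for Cd86, and none of the 4 calls was kept in every fit. The groups of 5 genes did not overlap, as for 29.1% of all genes. Cd80 was higher in iNOS KO (17.8, 16.1 and 16.0 CPM against 10.7, 12.5 and 12.4, log2 0.48, SE 0.13, edgeR adjusted p = 0.0442), as was Vsir (110.0, 119.9 and 111.9 CPM against 93.8, 88.2 and 99.4, log2 0.28, SE 0.077, edgeR adjusted p = 0.0378). Cd276 was lower (24.9, 25.3 and 26.5 CPM against 32.0, 34.6 and 34.2, log2 -0.39, SE 0.10, edgeR adjusted p = 0.0206). Cd86 had 1 count over 3 iNOS KO libraries against 14 over 3 wildtype libraries, a ratio of 0.0641 with a counting interval of 0.00152 to 0.421 (edgeR adjusted p = 0.0136), and its fitted log2 difference went from -3.47 to -5.15 without iNOS KO replicate B. Cd274 was at -0.38 (95% interval -0.69 to -0.07, edgeR adjusted p = 0.173) and was called lower without unstimulated iNOS KO replicate C (adjusted p = 0.0446) or stimulated iNOS KO replicate B (0.0186). Of the other 3, Icosl was at 0.21, Havcr2 at 0.18 and Pdcd1lg2 at 1.05, all with an adjusted p of 0.381 or more. Beside these differences the macrophage markers summed to 5893 to 6303 CPM in iNOS KO and 8336 to 8685 CPM in wildtype. Of these 9 markers 0 were called higher and 5 lower, and their part in the result was not tested.

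The count of 4 rested on single libraries. Among unstimulated libraries it was 0 without wildtype replicate C or without iNOS KO replicate A, and 1 without wildtype replicate A or B or iNOS KO replicate B or C. It was 2 without stimulated wildtype replicate C. The Cd80 call was lost (adjusted p = 0.0608 to 0.208) without any 1 of the 6 unstimulated libraries, of the 3 stimulated wildtype libraries or stimulated iNOS KO replicate A. The Vsir call was lost (0.0541 to 0.171) without any 1 of the 6 unstimulated libraries or stimulated wildtype replicate C. The Cd276 call was lost (0.0578 to 0.103) without unstimulated wildtype replicate B or C or any 1 unstimulated iNOS KO library, and that of Cd86 (0.0509 to 0.0683) without unstimulated replicate A or C of either genotype.

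Between stimulated iNOS KO and wildtype BMDM libraries, 6 of the 8 genes were lower, 1 was higher and Pdcd1lg2 did not pass the test, and the groups of 7 did not overlap (53.2% of all genes). Over all genes 24.2% were called higher and 24.2% lower, and the median log2 fold change was -1.02 over the 8 genes and -0.044 over all. Cd274 was 4.42-fold lower in iNOS KO, at 499, 386 and 504 CPM against 2168, 2023 and 1942 (log2 -2.14, SE 0.12, edgeR adjusted p = 2.74e-10), and still far above every unstimulated library. Havcr2 was 2.86-fold lower, at 38.3, 28.3 and 36.3 CPM against 101, 95.5 and 98.0 (log2 -1.52, SE 0.098, edgeR adjusted p = 1.16e-09). Vsir was 2.16-fold lower (56.7, 62.1 and 56.6 CPM against 115, 136 and 128, edgeR adjusted p = 3.72e-09) and Cd276 2.02-fold lower (12.9, 13.4 and 12.3 CPM against 22.5, 30.4 and 25.2, edgeR adjusted p = 4.32e-07). Of the CD28 ligands, Cd86 was lower by 2.04-fold (38, 25 and 44 counts against 70, 67 and 69, edgeR adjusted p = 0.000653) and Cd80 by 1.41-fold (24.0, 16.7 and 26.6 CPM against 31.9, 31.1 and 32.4, edgeR adjusted p = 0.00392).

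Icosl went the other way. It was 3.04-fold higher in stimulated iNOS KO libraries, with 227, 197 and 267 counts against 76, 68 and 70 (log2 1.60, SE 0.13, edgeR adjusted p = 1.4e-08), and was the single gene of the 8 that was higher. Pdcd1lg2 had 14, 17 and 23 counts against 15, 17 and 16 (log2 0.09, 95% interval -0.59 to 0.76, edgeR adjusted p = 0.848), and these low counts are compatible with any difference inside that interval. These 7 calls were kept without any 1 of the 12 libraries and with library totals, and Cd274 was at -2.03 without stimulated iNOS KO replicate B. Along with the lower Cd274, the summed macrophage markers were at a higher level in stimulated iNOS KO (12729 to 13565 CPM) than in stimulated wildtype libraries (8150 to 9137 CPM), and their part in the result was not tested. The 9 markers went both ways, with 4 called higher and 3 lower in iNOS KO and a median log2 fold change of 0.16. The 5 fibroblast markers summed to 10.4 to 15.8 CPM in stimulated iNOS KO and 3.58 to 4.92 CPM in stimulated wildtype, with Col3a1 at 0 throughout, and their part was not tested either. The 6 dendritic cell markers summed to 2.81 to 4.06 CPM against 1.25 to 2.08 CPM, and the 5 neutrophil markers to 37.2 to 42.9 CPM against 34.7 to 61.2 CPM, with Ly6g at 0 in all 12 libraries.

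The interaction asked directly whether the stimulation response differed between genotypes, as the response in iNOS KO minus that in wildtype on the log2 scale. It was called for 7 of the 8 genes, 2 higher and 5 lower, against 20% and 15.4% of all genes. The response of Cd274 was smaller in iNOS KO (difference -1.76, SE 0.19, edgeR adjusted p = 1.27e-06), as was that of Cd80 (-0.98, SE 0.19, edgeR adjusted p = 0.000489). Cd276 fell more in iNOS KO than in wildtype (difference -0.63, SE 0.14, edgeR adjusted p = 0.0023). The difference was -1.69 for Havcr2 (SE 0.14, edgeR adjusted p = 4.56e-08) and -1.39 for Vsir (SE 0.11, edgeR adjusted p = 3.1e-08). Havcr2 rose in wildtype and was not called in iNOS KO, and Vsir was called higher in the first and lower in the second, whereas with library totals Havcr2 was called lower in iNOS KO and Vsir was not called in wildtype. The response of Icosl was larger in iNOS KO by 1.39 (SE 0.21, edgeR adjusted p = 6.59e-05). That of Cd86 was larger by 2.44 (SE 0.85, edgeR adjusted p = 0.0347), a value that rests on the 1 count of the unstimulated iNOS KO group, since it was 4.12 without the library that held it (unstimulated iNOS KO replicate B). The Cd86 call was lost without unstimulated wildtype replicate A (adjusted p = 0.0744) or C (0.0667), unstimulated iNOS KO replicate A (0.123) or C (0.121) or stimulated iNOS KO replicate A (0.052), and with DESeq2 (0.0693), no count filter (0.0508) or the replicate letter as a block within each genotype (0.0574). Pdcd1lg2 was at -0.96 (95% interval -2.43 to 0.50, edgeR adjusted p = 0.341).

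**Figure D3:**
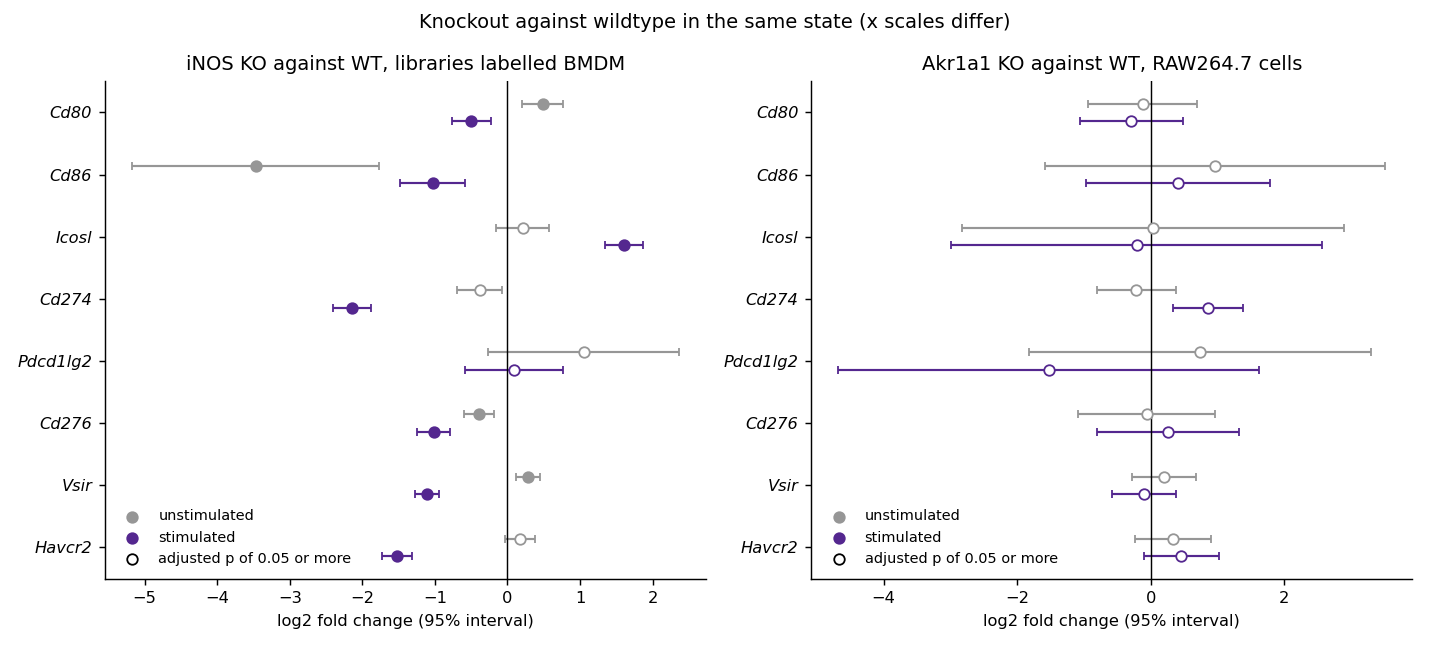
Log2 fold change of KO against wildtype for each gene (horizontal axis, points with 95% intervals, x scales differ between panels), unstimulated in grey and stimulated in purple, with open points where the adjusted p was 0.05 or more. In stimulated BMDM libraries 6 genes lie below 0 and Icosl at 1.60 above it, whereas all points of the RAW264.7 panel are open.

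The make-up of the B7 pool was summarised as the share that the PD-1 ligands Cd274 and Pdcd1lg2 took of 7 B7 transcripts (all but Havcr2) on the scale of CPM per kb, which does not depend on library scaling. In wildtype BMDM libraries this share was 12.0% ± 1.11 (SD, n = 3) unstimulated and 92.9% ± 0.746 stimulated, as the pool itself grew from 35.9 to 608 CPM per kb. In iNOS KO it was 8.84% ± 1.88 and 83.5% ± 1.64, with a pool of 38.0 and 153 CPM per kb. No groups overlapped in any of these comparisons, and the difference between stimulated iNOS KO and wildtype was -9.35 percentage points. An exact permutation test (2-sided) gave p = 0.1 for each of the 4 comparisons, the smallest value that 3 against 3 libraries allow. Vsir, which took 52.2% of the unstimulated wildtype pool, took 4.15% of the stimulated one. In RAW264.7 cells the share was 5.94% and 4.62% unstimulated and 50.8% and 60.4% stimulated in wildtype, and 4.52% and 4.83% unstimulated and 64.9% and 77.8% stimulated in Akr1a1 KO, with 2 libraries per group and no test. Against Cd80 and Cd86 alone, Cd274 and Pdcd1lg2 took 56.7% before and 98.3% after stimulation in wildtype BMDM libraries, 42.5% and 95.1% in iNOS KO, and 35.1% and 68.5% in wildtype RAW264.7 cells.

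**Figure D4:**
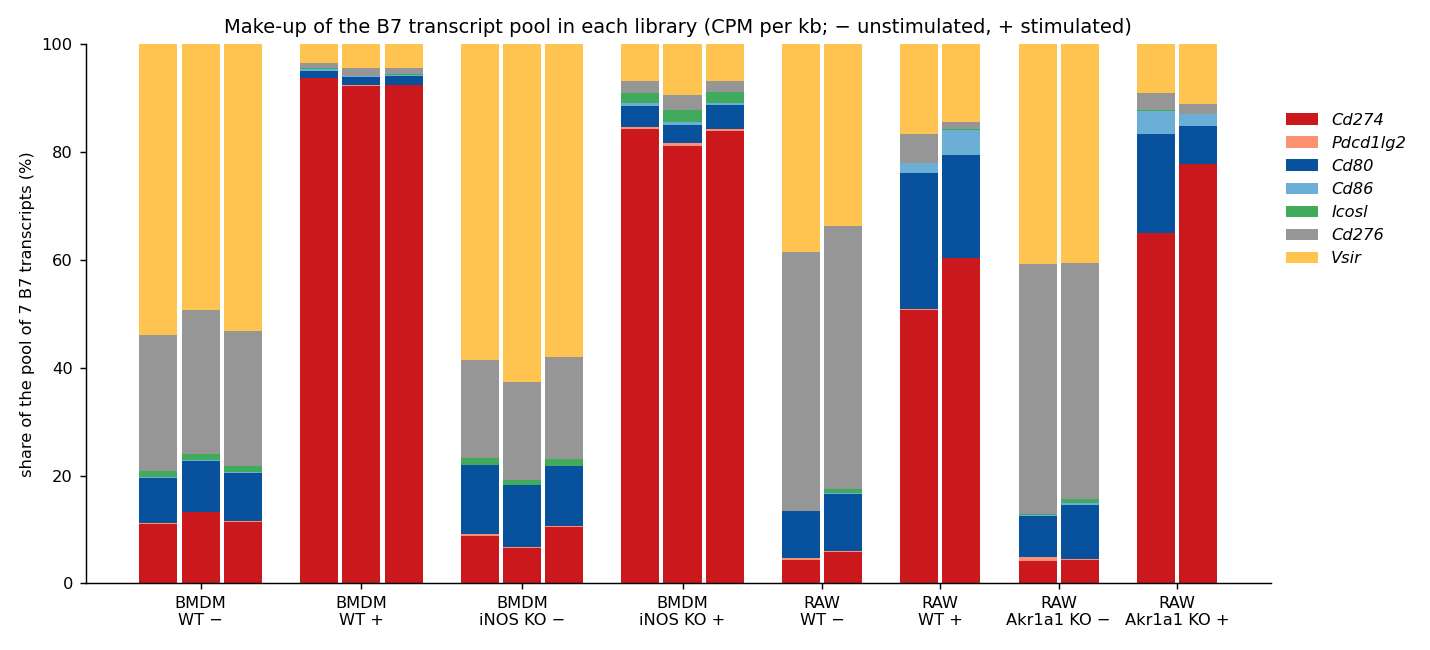
Make-up of the pool of 7 B7 transcripts in each library, as stacked shares in percent of CPM per kb (vertical axis, 0 to 100), with 1 bar per library. Cd274 fills 92.8% of the stimulated wildtype and 83.1% of the stimulated iNOS KO BMDM pool on average, and 55.5% and 71.4% of the stimulated wildtype and Akr1a1 KO RAW264.7 pools.

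The RAW264.7 experiment asked the same of wildtype and Akr1a1 KO cells. In wildtype cells stimulation raised 5 of the 8 genes and lowered Cd276, where 18.5% of the 19569 genes tested were called higher and 19.2% lower. In Akr1a1 KO cells 5 were raised and 0 lowered (19.8% and 19.4% of all genes), with 6 at an unadjusted p under 0.05. The groups of 6 genes did not overlap in wildtype (68.2% of all genes) and those of 7 in Akr1a1 KO (72%). The median log2 fold change of the 8 genes was 1.11 in wildtype and 1.02 in Akr1a1 KO, against -0.028 and 0.024 over all genes. Beside them the neutrophil markers summed to at most 0.537 CPM unstimulated and to 121 to 144 CPM (wildtype) and 248 to 420 CPM (Akr1a1 KO) stimulated, and their part in the result was not tested.

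Cd274 was at 6.39 and 7.59 CPM in unstimulated and 318 and 479 CPM in stimulated wildtype cells (56.5-fold, log2 5.82, SE 0.28, edgeR adjusted p = 4.33e-06), and at 7.07 and 5.25 CPM and 638 and 813 CPM in Akr1a1 KO cells (119.5-fold, log2 6.90, SE 0.30, edgeR adjusted p = 2.98e-06). Cd80 reached 163 and 155 CPM in stimulated wildtype and 185 and 75.1 CPM in stimulated Akr1a1 KO cells, from 12.2 to 14.3 CPM unstimulated, and its log2 fold changes were 3.53 (SE 0.37, edgeR adjusted p = 0.000174) and 3.36 (SE 0.37, edgeR adjusted p = 0.00021), the latter 2.56 without stimulated Akr1a1 KO replicate A. All stimulated libraries were above all unstimulated ones for both genes. Cd86 was at 0 and 12 counts unstimulated and 153 and 656 stimulated in wildtype, and at 2 and 14 and then 632 and 351 in Akr1a1 KO cells. The replicates of Cd86 differed by more than those of Cd274, and its log2 fold change in wildtype, 6.98 (SE 0.88, edgeR adjusted p = 0.000454), ranged from 5.95 to 11.7 as single libraries were left out, the highest without unstimulated replicate B and the lowest without stimulated replicate B, and was 7.64 without stimulated replicate A. In Akr1a1 KO it was 6.42 (SE 0.84, edgeR adjusted p = 0.000509), and 7.62 without unstimulated replicate B.

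Vsir rose on stimulation in wildtype (78.4 and 61.4 to 145 and 159 CPM, log2 1.12, SE 0.21, edgeR adjusted p = 0.00335) and in Akr1a1 KO cells (94.4 and 66.8 to 123 and 161 CPM, log2 0.82, SE 0.21, edgeR adjusted p = 0.0146). The latter call was lost without Akr1a1 KO replicate B, unstimulated (adjusted p = 0.106) or stimulated (0.112). Havcr2 rose in both, from 15.6 and 19.1 to 31.3 and 43.7 CPM in wildtype (log2 1.11, SE 0.25, edgeR adjusted p = 0.00863) and from 26.4 and 18.0 to 58.2 and 45.0 CPM in Akr1a1 KO (log2 1.22, SE 0.25, edgeR adjusted p = 0.00503), and its wildtype adjusted p was 0.0569 without unstimulated wildtype replicate A. Cd276 went from 71.5 and 64.9 to 33.3 and 10.9 CPM in wildtype (log2 -1.64, SE 0.47, edgeR adjusted p = 0.0242) and from 78.2 and 52.8 to 32.4 and 20.1 CPM in Akr1a1 KO (log2 -1.32, SE 0.46, edgeR adjusted p = 0.052). The Cd276 wildtype call was lost without unstimulated wildtype replicate A (adjusted p = 0.077) or B (0.0672) or stimulated wildtype replicate B (0.0634), with log2 values of -0.98 without the last and -2.59 without stimulated replicate A. In Akr1a1 KO it was called lower without stimulated wildtype replicate A (0.00591) or B (0.00626), with the replicate letter as a block (log2 -1.34, edgeR adjusted p = 0.00967) and with that block within each genotype (log2 -1.33, edgeR adjusted p = 0.000827). Icosl (0 to 59 counts) and Pdcd1lg2 (1 to 7 counts) were not called in either genotype. Without both unstimulated B libraries, 5 genes were raised in wildtype and 0 lowered, and 3 were raised in Akr1a1 KO, where Vsir (adjusted p = 0.112) and Havcr2 (0.0659) no longer passed.

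Between Akr1a1 KO and wildtype RAW264.7 cells, 0 of the 8 genes were called by edgeR in either state or for the interaction, and the groups of 0 (unstimulated) and 3 (stimulated) did not overlap, against 41.7% and 38.4% of all genes. The shares of all genes called were also low, with 0.23% higher and 0.353% lower unstimulated, 0.0869% and 0.199% stimulated, and 0.00511% and 0.0153% for the interaction. At an unadjusted p under 0.05, 0 genes passed unstimulated, 1 stimulated and 1 for the interaction, and that gene was Cd274. Stimulated Cd274 stood at 638 and 813 CPM in Akr1a1 KO against 318 and 479 CPM in wildtype, without overlap (log2 0.86, SE 0.23, 95% interval 0.34 to 1.39, edgeR adjusted p = 0.222). Beside this difference the macrophage markers summed to 5294 to 9240 CPM in stimulated Akr1a1 KO and 12229 to 12440 CPM in stimulated wildtype cells, and the neutrophil markers were the higher in Akr1a1 KO as given above, and the part of both in the result was not tested. Of the 8 macrophage markers tested here, 0 were called higher and 1 lower. DESeq2 called Cd274 (adjusted p = 0.025, 1 of 8 genes), as did edgeR with no count filter (adjusted p = 4.58e-05). The interaction of Cd274 was 1.08 (95% interval 0.29 to 1.87, edgeR adjusted p = 0.871, and 0.00481 with no count filter), and DESeq2 called 0 of 8 there and 0 unstimulated. For Havcr2 the 95% interval of the stimulated difference was -0.11 to 1.02, for Vsir -0.58 to 0.38 and for Cd80 -1.05 to 0.48. The intervals of Cd86 (-0.96 to 1.78), Cd276 (-0.80 to 1.32), Icosl (-2.99 to 2.57) and Pdcd1lg2 (-4.68 to 1.62) were wider still.

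Cd274 and Pdcd1lg2 sit in a stretch of chromosome 19 with Jak2 and Insl6 upstream and Ric1 and Ermp1 downstream, and the tables place the start of Plgrkt, a plasminogen receptor gene read in the opposite direction, 65 bases from that of Cd274. Of the 7 neighbours listed, 5 were tested, and in wildtype BMDM libraries stimulation raised 4 (Jak2 2.96, Insl6 3.40, Plgrkt 1.41 and Ric1 0.97 on the log2 scale) and lowered Ermp1 (-0.31), where 32.4% of all genes were called higher and 28.5% lower. In stimulated iNOS KO against wildtype, 1 of the 5 was lower (Ric1, log2 -0.88, SE 0.075, edgeR adjusted p = 3.97e-08), beside 24.2% of all genes. Plgrkt was at -0.22 (edgeR adjusted p = 0.0663), Jak2 at -0.26 (0.2) and Insl6 at -0.19 (0.0849), beside -2.14 for Cd274. All of the genes that overlapped a member in the tables lay on the opposite strand, and since the counting was not stated to use strand, reads of such pairs cannot be told apart. Gm36043 lies within Cd274 and held 4583 counts over the 20 libraries against 148367 for Cd274. A930007I19Rik overlaps Pdcd1lg2 with 1620 counts against 145, Cdh23 overlaps Vsir with 372 and Gm10657 overlaps Cd276 with 50.

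**Figure D5:**
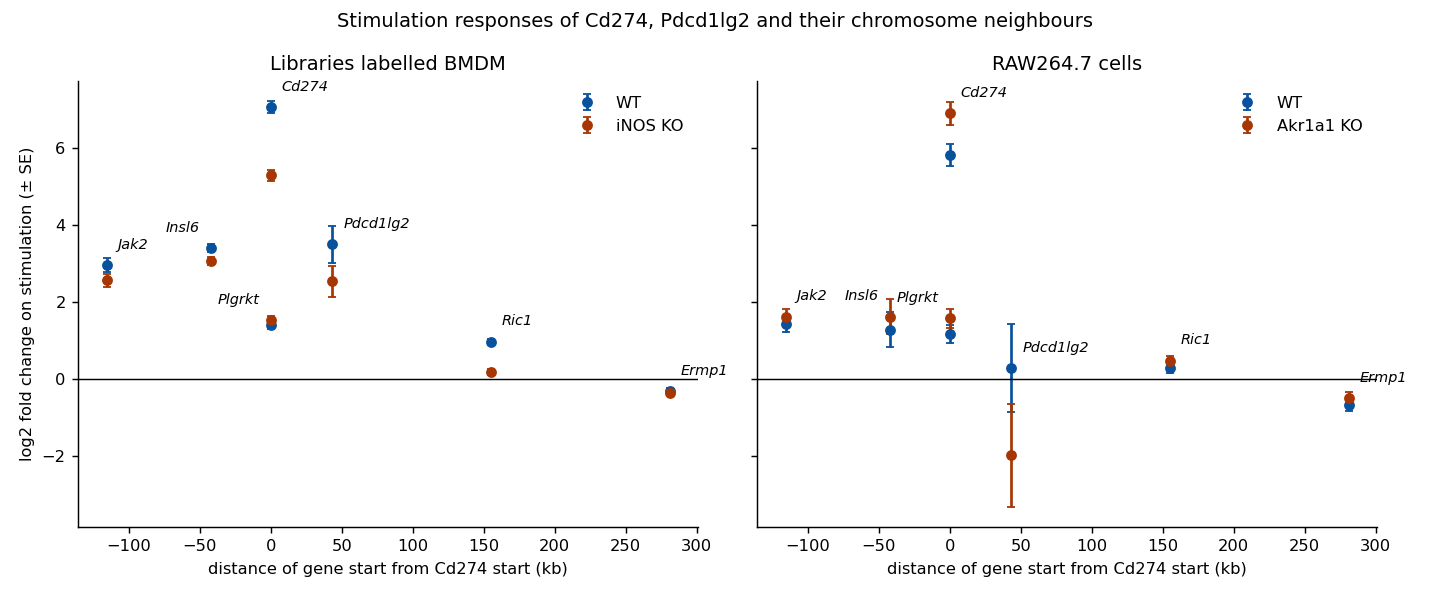
Log2 fold change on stimulation (vertical axis, ± SE) of Cd274, Pdcd1lg2 and the 5 tested neighbours, by the distance of each gene start from that of Cd274 in kb (horizontal axis), in BMDM libraries (left) and RAW264.7 cells (right). Cd274 stands above every neighbour in both panels, and Plgrkt, at nearly the same position, lies at 1.41 and 1.53 in wildtype and iNOS KO BMDM libraries.

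The route from IFNγ to PD-L1 was read as a list of 9 genes, for which, as for the other lists, no alternative fit was run. In wildtype BMDM libraries 7 rose and 2 fell on stimulation (median log2 fold change 2.96), and in iNOS KO 7 rose and 1 fell (2.56). Over all genes 32.4% were called higher and 28.5% lower in wildtype, and 27.3% and 24.6% in iNOS KO. Irf1, the transcription factor at the end of the route, held 185, 177 and 180 counts unstimulated and 23734, 24240 and 21687 stimulated in wildtype (log2 7.34), and 142, 171 and 156 and then 13750, 14562 and 13806 in iNOS KO (log2 6.91). Stimulated iNOS KO was thus lower in Irf1 (log2 -0.79, edgeR adjusted p = 5.54e-07). In that comparison 1 of the 9 was higher and 3 were lower (median -0.12), beside 24.2% of all genes in each direction. Jak1, a kinase of the IFNγ receptor, was at -1.07 (edgeR adjusted p = 8.46e-10) and Irf8 was higher at 1.00 (edgeR adjusted p = 4.46e-09), while Jak2, at -0.26, did not pass (edgeR adjusted p = 0.2). In RAW264.7 cells 8 of the 9 rose and 1, Ifngr1, fell in each genotype, where 18.5% (wildtype) and 19.8% (Akr1a1 KO) of all genes were called higher and 19.2% and 19.4% lower. Between Akr1a1 KO and wildtype 0 of the 9 differed in either state, and the shares of all genes called were low, as given above.

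Other co-stimulatory and checkpoint ligands largely rose with the B7 genes. Of 13 tested of 15 listed, 12 rose and 1 (Nectin3, -0.50) fell on stimulation in wildtype BMDM libraries (median 2.75), and 11 rose and 1 fell in iNOS KO (2.74). Over all genes 32.4% and 27.3% were called higher, and 28.5% and 24.6% lower. Cd40, the receptor through which T cells license macrophages, rose by 5.67 and 5.94 on the log2 scale, and Tnfsf9, the 4-1BB ligand, by 2.75 and 2.74. Between stimulated iNOS KO and wildtype, 4 were lower and 1 higher, beside 24.2% of all genes in each direction. Among them were Pvr, a ligand of the T cell receptors TIGIT and DNAM-1, at -1.19 (edgeR adjusted p = 3.12e-10) and Cd48 at 1.41 (edgeR adjusted p = 0.000139). In RAW264.7 cells 7 of 10 rose in wildtype and 6 in Akr1a1 KO, and 0 fell, where 18.5% and 19.8% of all genes were called higher and 19.2% and 19.4% lower. Of the 12 other B7 and butyrophilin-like genes only 3 had enough counts to be tested in BMDM libraries, and 1, Igsf11, a VISTA ligand, was lower on stimulation in each genotype (-0.55 and -0.35). It was higher in stimulated iNOS KO than in wildtype (0.59, edgeR adjusted p = 0.00051).

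Partners of the proteins were read in the same way. Of 4 tested TIM-3 partners, 3 were higher in iNOS KO than in wildtype BMDM libraries after stimulation, where 24.2% of all genes were called in each direction. They were Lgals9, which encodes the TIM-3 ligand galectin-9 (0.47, edgeR adjusted p = 7.58e-05), Ceacam1 (0.56, edgeR adjusted p = 0.000952) and Hmgb1 (1.29, edgeR adjusted p = 6.51e-06), while Havcr2 itself was lower. On stimulation Lgals9 rose by 2.62 in wildtype and 4.97 in iNOS KO on the log2 scale, and Hmgb1 fell in both (-2.43 and -1.23). Among 4 genes listed for links to the PD-L1 protein, Cmtm6, which keeps PD-L1 at the surface, rose by 0.79 and 0.75 and did not pass between stimulated genotypes (-0.07, edgeR adjusted p = 0.439), where Cmtm4 (-0.37) and Cop1 (-0.51) were lower. Of the 3 genes of CD86 turnover, Cd83, which protects CD86 from degradation, rose by 3.26 and 3.70, Marchf8 fell (-0.30 and -0.22), and Marchf1, the ubiquitin ligase of CD86, rose by 3.23 and 4.01. Between stimulated genotypes Marchf1 (1.30, edgeR adjusted p = 0.0172) and Cd83 (0.16, edgeR adjusted p = 0.0375) were higher in iNOS KO.

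The genes with the profile most like each member were named by Pearson's correlation of log2 CPM over the 12 BMDM libraries, as a description, since these libraries share 4 groups and the stimulation contrast. Cd274 was most like Zc3hav1, Ampd3 and Plk2 (r = 0.998, 0.998 and 0.997), Cd86 like Blnk, Dhrs3 and Acp2 (0.994 each), and Havcr2 like Gbe1, Kdm3a and Pik3cb (0.994, 0.991 and 0.989). Cd80 was most like Kitl (0.985), Icosl like Glrx (0.991), Pdcd1lg2 like 9530068E07Rik (0.989), Cd276 like Zfp827 (0.986) and Vsir like Ccdc134 (0.989). Ranked by Spearman's rho, the first 3 genes shared 0 of 3 names with these for Cd80, Cd86, Icosl, Cd274 and Havcr2, 1 for Pdcd1lg2 and Vsir and 2 for Cd276. Among the members Cd274 and Cd86 were most alike (r = 0.968), and Icosl and Cd276 most opposed (-0.914).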

How the data were processed

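Bulk RNA-seq libraries were grouped by their labels. The authors counted reads per gene after CASAVA base calling and STAR alignment to mm10, and the deposited tables hold these counts unnormalised and unfiltered for 56748 genes. Whether counting used strand is not given in the sources used here.

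Each experiment was fitted on its whole table with 1 mean per group by edgeR 4.0.16 (R 4.3.3; TMM scaling, at least 10 counts in total, 18691 and 19569 genes), with 2-sided quasi-likelihood F tests and Benjamini-Hochberg adjustment over all genes tested. CPM uses TMM-scaled library sizes, and CPM per kb the gene length in the tables. Where every library of a group held 3 counts or fewer, summed counts were compared with an exact 95% interval that covers counting error only. On simulated data with 200 genes changed by a log2 of 2, 200 were called with 12 unchanged genes among 18277 (stimulated iNOS KO against wildtype), and 185 with 13 among 19022 (stimulated Akr1a1 KO against wildtype). The changed genes were drawn from well-counted genes alone. These numbers therefore do not cover genes with low counts, such as Pdcd1lg2, or smaller changes. The pool share was tested with scipy 1.17.1 and figures drawn with matplotlib 3.10.9. All 8 members, the genes of their pathway lists and, for each member, the 3 most correlated genes could be named; from the lists, examples were picked after their values were seen. The members and lists were chosen with earlier results of these data known. Alternatives were DESeq2 1.42.0, its size factors, library totals, other filters, protein-coding genes alone, only the groups compared, a fold change limit, a replicate block and each library left out. No libraries of a group were alike within sampling noise (chi-square per degree of freedom 2.65 to 68.6). The rule that every same-letter correlation of deviations from the group mean exceed 0.1 was met in BMDM by the iNOS KO libraries, unstimulated with stimulated (0.41, 0.50 and 0.12), and by no other pair of groups. This rule cannot show pairing by letter, because iNOS KO unstimulated A also correlated with stimulated C at 0.41. Over all pairs of BMDM groups, 14 of 36 different-letter pairs exceeded 0.1, beside 7 of 18 same-letter pairs. In RAW264.7 cells the same correlations within a genotype were 0.41 (wildtype) and 0.15 (Akr1a1 KO), and no source ties a letter to a clone. With 2 libraries per group, both letters give the same value by construction.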

Additional observations from a re-analysis of the deposited data

Results flagged for a closer look

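The stimulation response differed between iNOS KO and wildtype BMDM libraries, by the interaction term, for 7 of the 8 genes, which is what marked them. Over all genes 20% were called higher and 15.4% lower. As iNOS KO minus wildtype on the log2 scale, the difference was -1.76 for Cd274, -1.69 for Havcr2, -1.39 for Vsir, -0.98 for Cd80, -0.63 for Cd276, 1.39 for Icosl and 2.44 for Cd86. That of Cd86 rests on 1 count in the unstimulated iNOS KO group. Vsir and Havcr2 rose in wildtype, and in iNOS KO Vsir fell and Havcr2 did not pass the test, with the exceptions under library totals given above. Between Akr1a1 KO and wildtype RAW264.7 cells 0 of the 8 genes were called in this way by edgeR with the count filter (1 at an unadjusted p under 0.05, 0 by DESeq2), and 1, Cd274, without that filter (adjusted p = 0.00481). With the filter, 0.00511% of all genes were called higher and 0.0153% lower there.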

How the results depend on the processing

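In BMDM libraries all calls on stimulation in wildtype and between stimulated genotypes kept their direction and side of the threshold in each DESeq2, filter, block and left-out-library fit that could estimate them, and counts called were 8, 6 to 7 (stimulation in iNOS KO), 7 and 6 to 7 (interaction) as single libraries were left out. The count between unstimulated genotypes was 0 to 5 instead of 4. With a fold change limit (absolute log2 over 1) it was 1, and that on stimulation in iNOS KO was 4. With library totals, chosen after seeing the data, Vsir on stimulation in wildtype was -0.035. Leaving out libraries, Havcr2 on stimulation in iNOS KO ranged from -0.21 to 0.016 and Pdcd1lg2 between stimulated genotypes from -0.055 to 0.23.

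In RAW264.7 cells 1 gene, Cd274, was called between stimulated genotypes with DESeq2 and with no count filter, and 1 for the interaction with no filter. Without both unstimulated B libraries, an alternative chosen after seeing the data, 3 were called on stimulation in Akr1a1 KO. Leaving out libraries turned directions that had not been called. Between unstimulated genotypes the log2 differences ranged from -0.76 to 6.66 (Icosl), -0.37 to 0.20 (Cd276), -1.16 to 1.72 (Pdcd1lg2), -0.064 to 0.43 (Vsir), -0.23 to 5.66 (Cd86), -0.42 to 0.14 (Cd274) and -0.17 to 0.0047 (Cd80). Between stimulated genotypes they ranged from -1.47 to 1.65 (Icosl), -0.22 to 1.49 (Cd86), -0.36 to 1.25 (Cd276), -0.32 to 0.050 (Vsir) and -1.11 to 0.21 (Cd80). For the interaction they ranged from -6.87 to 1.58 (Icosl), -0.30 to 0.41 (Havcr2), -5.25 to 0.64 (Cd86), -0.33 to 1.28 (Cd276) and -1.03 to 0.29 (Cd80). On stimulation in wildtype they ranged from -0.43 to 0.92 (Pdcd1lg2) and -0.91 to 7.53 (Icosl), and in Akr1a1 KO from -0.57 to 1.34 (Icosl). With 1 library left in a group, that library is assumed to vary like the others.

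The pool share difference against Cd80 and Cd86 alone was 41.6 (wildtype) and 52.6 (iNOS KO) percentage points on stimulation and -14.2 and -3.19 between unstimulated and stimulated genotypes of BMDM libraries, and 33.5 and 47.6 on stimulation of RAW264.7 cells (wildtype and Akr1a1 KO). Without division by length the stimulated BMDM difference was -10.8. Leaving out libraries, the unstimulated RAW264.7 difference ranged from -1.27 to 0.059.

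Same-letter libraries correlated in their deviations at -0.53 to 0.50 over all pairs of BMDM groups and at -0.14 to 0.41 in RAW264.7 cells. Different-letter libraries did so at -0.51 to 0.48 and at -0.41 to 0.14. With 2 libraries per group in RAW264.7 cells, the deviations of a group are exact opposites. The different-letter range there mirrors the same-letter range by construction and cannot be set against it. With the replicate block the counts called were 8, 7, 4, 7 and 7 in BMDM libraries (the same as without it), 6 and 6 on stimulation in RAW264.7 cells, where Cd276 in Akr1a1 KO was added (-1.34), and 0 between genotypes, with Icosl at 0.36 stimulated and 0.076 for the interaction. A crossed block, chosen after seeing the data, also gave 6 and 6. A replicate block within each genotype, likewise chosen after seeing the data, gave 8, 7 and 6 (interaction, Cd86 lost) in BMDM libraries and 6, 6 and 0 in RAW264.7 cells. The causes of these changes were not tested. Low counts limit Pdcd1lg2, Cd86 before stimulation and Icosl in RAW264.7 cells.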

Other observations

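Transcripts of the receptors that the B7 proteins bind were also present in these macrophage libraries. Pdcd1, which encodes PD-1, held 34, 41 and 27 counts in unstimulated wildtype BMDM libraries and 0, 2 and 0 after stimulation. In iNOS KO it held 175, 208 and 147 counts unstimulated and 50, 49 and 51 stimulated, above wildtype in both states, and the stimulated difference passed the test (log2 5.94, edgeR adjusted p = 3.61e-08). Cd28 went the other way, with 16, 13 and 11 counts in stimulated wildtype and 0, 0 and 1 in stimulated iNOS KO. The stimulated difference of Cd28 passed the test (edgeR adjusted p = 3.25e-05). Of the 5 receptors tested, 2 were called higher and 1 lower in stimulated iNOS KO, beside 24.2% of all genes in each direction. The 6 T cell markers summed to 0 to 0.693 CPM in stimulated wildtype and 0 to 0.0597 CPM in stimulated iNOS KO, and to 0 to 0.349 and 0 to 0.199 CPM unstimulated. Of these Cd3d, Cd3g and Cd8a were at 0 in all 12 BMDM libraries and the other 3 were not, and their part in the result was not tested.

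In RAW264.7 cells Cd28 held 152 and 1394 counts in unstimulated wildtype and 2 and 0 in unstimulated Akr1a1 KO, and Icos held 67 and 448 against 37 and 123. Of the 5 receptors tested, 0 were called between these groups, beside 0.23% of all genes called higher and 0.353% lower. Cd28 was at 11.04 and 29.97 CPM against 0.157 and 0 CPM (edgeR adjusted p = 0.0537, 0.000338 unadjusted). After stimulation Icos held 1 and 0 counts in wildtype and 1 and 0 in Akr1a1 KO. The wildtype library with 1394 and 448 counts was replicate B, also the most deeply sequenced.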
